A study of Sus scrofa with 80 samples.

Results

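Blood from pigs with a high combined value of CD4+ cells and body weight was compared with blood from pigs in which that value was low. The trait pair is labelled CD4+--W35, where W35 is the weight at 35 days of age. Its 10 arrays (5 low, 5 high) were taken by their titles from the 80 arrays of a series with 8 trait pairs. All 10 are of blood drawn from a large vein of weaned piglets at 35 days, and each array is 1 pig. CD4+ was measured in these animals by flow cytometry. The combined value is called the self-product, by its name a product of both traits, and the groups are the 5 animals at either end of its distribution. The self-product, the CD4+ value and the weight of each pig are not used here, so the part of CD4+ and the part of weight cannot be told apart. Breed, sex and litter are not given in the sources used here, and the labels name no treatment or genotype. The question was which genes differ in blood between the 2 ends.

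CD4 marks helper T cells, which recognise antigen on class II molecules and direct other immune cells through cytokines. Cytotoxic T cells and natural killer (NK) cells kill target cells with granule proteins such as granzymes, granulysin and perforin, and release chemokines such as CCL5. Growth after weaning depends on growth hormone, its receptor and insulin-like growth factor 1 (IGF1), which act mainly through liver, muscle and bone. Whole blood holds the RNA of all white cells, of platelets and of young red cells together. A lower value in such a sample can mean fewer cells of a type or less RNA per cell, and these cannot be told apart.

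Values are log2 expression per probe set and lay between 2.23 and 14.90 in these arrays. Differences are high minus low on the log2 scale, with the SE from limma. Array medians lay between 5.44 and 5.48 in the low group and between 5.38 and 5.51 in the high group. High replicate 1 stood apart: its interquartile range was 2.67 against 3.15 to 3.61 in the other 9 arrays, and its highest correlation with any of them was 0.939, while they correlated among themselves at 0.949 or more. The hybridisation control bioB minus bioC put low replicates 1 and 3 and high replicate 2 in a lower class. The other 3 low and 4 high arrays were in a higher class. The 3′ minus 5′ actin control, a measure of RNA integrity, ranged from 1.61 to 3.88 in the low group and from 1.79 to 3.67 in the high group. EIF1AY, a Y-linked gene, was at its higher level in 2 low and 2 high arrays. Of the 10 pigs, 9 also served in other trait pairs, and 3 of them (low replicate 4, high replicates 3 and 4) carry the opposite label in some other pair. The mean levels of the 7 blood cell lists described here lay between 7.92 and 9.91, above the median probe set mean of 5.49. The lists take the brightest probe set of each gene, so this comparison cannot show which tissue was sampled.

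No gene differed between the groups after adjustment. With limma, 0 of 23999 probe sets (0%) had an adjusted p under 0.05, and the smallest adjusted p was 0.159, that of CCL5. At an unadjusted p under 0.05 there were 2143 probe sets (8.93%), where 5% would be 1200. Of these, 990 (4.13%) were higher and 1153 (4.8%) were lower in the high group. For 394 probe sets (1.64%) all 5 high arrays lay on 1 side of all 5 low arrays, with 283 of them higher (1.18%) and 111 lower (0.463%). A difference of at least 1 was seen in 38 of the higher and 24 of the lower ones. The balance of the directions depended on signal and on 1 array. Among the 12000 brighter probe sets 452 were higher and 957 lower at an unadjusted p under 0.05, and among the 11999 dimmer ones 538 were higher and 196 lower. Without high replicate 1 the brighter ones had 504 higher and 533 lower, and over all probe sets 928 were higher and 703 lower.

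**Figure D1:**
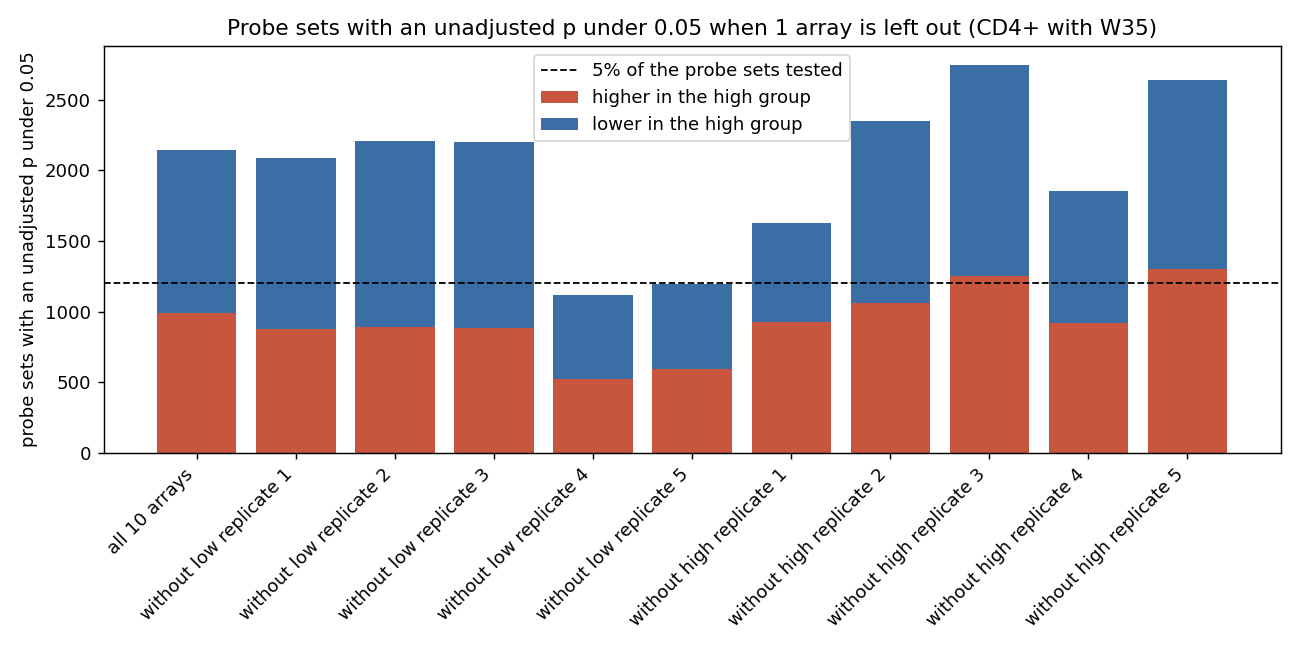
Bars give the number of probe sets (y axis, of 23999 tested) with an unadjusted p under 0.05 for all 10 arrays and with each array left out in turn, split into those higher and lower in the high group; the dashed line is 5% of the probe sets. The count lies near the line only without low replicate 4 (1118) and without low replicate 5 (1195), and is 1631 to 2744 in the other bars.

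How much the count rested on single arrays is shown by the plot of left-out arrays. Without low replicate 4 it was 1118 and without low replicate 5 it was 1195, both under 1200. Leaving out low replicate 2 brought 6 probe sets under an adjusted p of 0.05, and leaving out high replicate 4 brought 2. CCL5 was among them both times, at adjusted p 0.0473 and 0.0485, and differed by 1.43 without high replicate 4. NAP1L3, a relative of the nucleosome assembly proteins, passed without low replicate 2 at -1.89 (adjusted p 0.0473); over all 10 arrays it differed by -1.51 (SE 0.38) and its groups overlapped. The remaining 4 of the 6 and 1 of the 2 carry no gene symbol.

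Since nothing passed, single genes are given as values. The gene with the smallest p was CCL5, a chemokine that draws T cells and monocytes and is made by activated cytotoxic cells. CCL5 measured 10.98, 11.14, 10.78, 10.52 and 10.88 in the 5 low arrays and 12.37, 12.50, 12.19, 11.78 and 12.11 in the 5 high arrays. Every high array lay above every low array, and the groups were closest between low replicate 2 and high replicate 4. The means were 10.86 ± 0.23 (low) and 12.19 ± 0.27 (high; SD, n = 5 each), a 2.51-fold difference in intensity, and without high replicate 1 the log2 difference was 1.29.

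GZMH, the granule protease granzyme H, measured 9.97, 10.14, 10.15, 8.78 and 9.67 in the low arrays and 11.12, 11.25, 10.83, 11.33 and 10.80 in the high arrays. The groups did not overlap, and low replicate 4 was the lowest of the low arrays. The difference was 1.32 (SE 0.25) with an adjusted p of 0.552 in limma. GNLY, the pore-forming granule protein granulysin, measured 10.98, 12.24, 12.02, 11.40 and 11.49 in the low arrays and 12.07, 12.96, 12.43, 12.78 and 13.01 in the high arrays. These groups met at high replicate 1, which lay below low replicate 2. KLRK1, the activating receptor NKG2D, measured 8.28, 8.36, 8.56, 8.47 and 8.80 in the low and 8.59, 10.15, 9.07, 9.36 and 9.84 in the high arrays, again with high replicate 1 inside the range of the low group. Without that array the difference of KLRK1 was 1.11 in place of 0.90, and that of GNLY 1.17 in place of 1.02. CTSW, a cathepsin of cytotoxic lymphocytes, differed by 0.42 (SE 0.14), with low arrays from 7.63 to 8.08 and high arrays from 8.15 to 8.54.

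Of the 34 members of the cytotoxic and NK list 10 were measured with 1 symbol. Of these 8 were higher, against 47% of all genes. The 5 genes given above had an unadjusted p under 0.05 in the higher direction, and 0 had one in the lower. Over all 6765 genes, 187 (2.76%) were higher and 405 (5.99%) lower at that p, and 45 (0.665%) and 42 (0.621%) did not overlap. The other members did not share the pattern. PRF1, the pore-forming perforin, differed by 0.24 (SE 0.22), HCST, the adaptor DAP10 that signals for KLRK1, by 0.30 (SE 0.18), and FASLG, the death ligand, by -0.04 (SE 0.14). TYROBP and FCER1G, adaptors that myeloid cells use as well, differed by 0.04 (SE 0.26) and -0.06 (SE 0.25). The list's median difference was 0.36 against -0.02 over all genes. Its mean level per array lay between 9.14 and 9.52 in the low group and between 9.73 and 10.06 in the high group, without overlap. Of its 10 genes 3, CCL5, GZMH and CTSW, do not overlap on their own. The list was chosen with earlier results of these data known and holds these genes. The gap between its means is therefore no separate evidence. The number of members higher at an unadjusted p under 0.05 was 4 in the larger control class alone, 6 without high replicate 2, and 5 under each of the other settings tried.

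**Figure D2:**
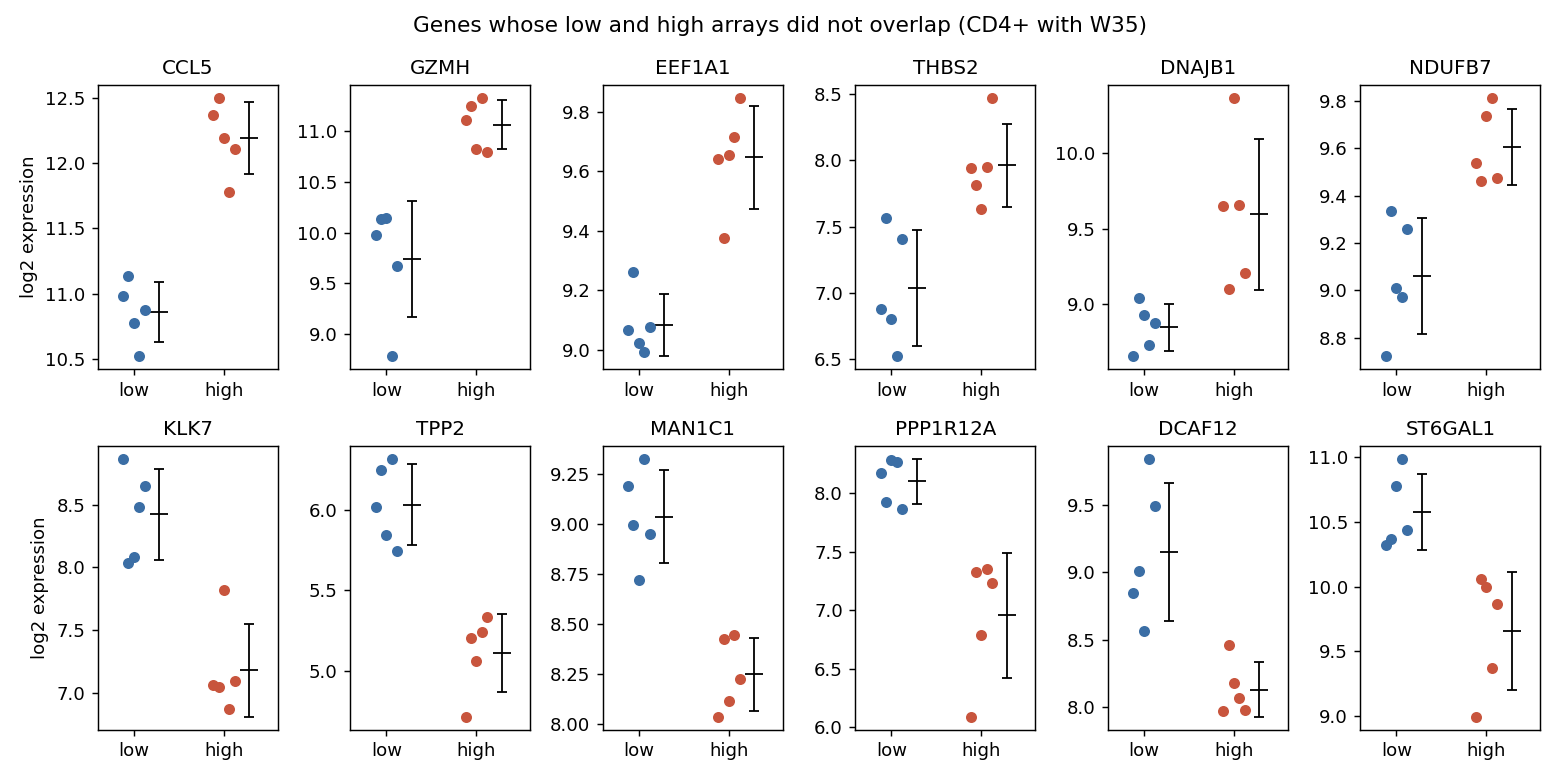
Each panel shows 1 gene, with log2 expression on the y axis, the 5 low arrays in blue and the 5 high arrays in red, and the mean ± SD beside them; y axes differ between panels. The panels are 12 of the 24 genes with the smallest p among those with groups apart, and in each of them every high array lies on 1 side of every low array.

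Beside CCL5 and GZMH, 10 further genes were taken as the higher ones with the smallest p among brighter probe sets whose groups do not overlap. The plot of genes whose arrays do not overlap shows 6 of these 12 and 6 of the 12 lower ones. EEF1A1, the elongation factor that brings aminoacyl-tRNA to the ribosome, measured 9.07, 9.26, 9.02, 8.99 and 9.07 in the low arrays and 9.64, 9.37, 9.65, 9.72 and 9.85 in the high arrays, a difference of 0.56 (SE 0.13). Its probe set is of a type that can match several related transcripts, and of its other probe sets 1 differed by 0.60 and 1 by -0.05. DNAJB1, an Hsp40 cochaperone induced by heat and other stress, ranged from 8.66 to 9.04 in the low and from 9.10 to 10.36 in the high arrays, so the groups came close without meeting. NDUFB7, an accessory subunit of respiratory complex I, differed by 0.55 (SE 0.15), with low arrays up to 9.34 and high arrays from 9.46.

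The remaining higher genes have varied roles. THBS2, a matrix glycoprotein of the thrombospondin family, differed by 0.93 (SE 0.23) and ABCC6, a membrane transporter, by 0.95 (SE 0.27). Other probe sets of ABCC6 gave 0.66 (SE 0.20) and 0.04 (SE 0.21). MAP4K4, a kinase upstream of stress signalling, differed by 0.88 (SE 0.24) on 1 probe set and by -0.17 (SE 0.15) on the other. ZC3H11A, a zinc finger protein of mRNA export, was higher by 0.73 (SE 0.19), RNASEK by 0.66 (SE 0.19), PA2G4, a growth-regulated RNA-binding protein, by 0.62 (SE 0.19), and HMGA1, a chromatin protein, by 0.50 (SE 0.15). In MAP4K4 high replicate 1 was the highest array at 6.78, and without it the difference was 0.70.

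Among the lower genes, KLK7, a kallikrein that cuts proteins of the outer skin, had the smallest p. KLK7 measured 8.87, 8.03, 8.08, 8.48 and 8.65 in the low arrays and 7.06, 7.05, 7.82, 6.87 and 7.09 in the high arrays. High replicate 3 lay between the other high arrays and the low group. The difference was -1.24 (SE 0.22), with an adjusted p of 0.552 in limma.

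TPP2, a peptidase that trims peptides released by the proteasome, measured 6.02, 6.25, 5.84, 6.32 and 5.74 in the low arrays and 4.71, 5.20, 5.06, 5.24 and 5.34 in the high arrays, and its other probe set differed by -0.40 (SE 0.25). MAN1C1, a Golgi mannosidase that trims N-glycans, measured 9.19, 9.0, 8.72, 9.33 and 8.95 in the low arrays and 8.04, 8.43, 8.12, 8.45 and 8.23 in the high arrays, with -0.85 on a second probe set. ST6GAL1, which adds sialic acid to N-glycans, differed by -0.92 (SE 0.23), with high replicate 1 the lowest array at 8.99. On the other probe set of each of these genes the groups overlapped. VPS45, a vesicle fusion protein, differed by -1.19 (SE 0.28), ATL3, a GTPase that shapes the endoplasmic reticulum, by -0.98 (SE 0.26), and DCAF12, a substrate receptor of a ubiquitin ligase, by -1.02 (SE 0.23). The other probe set of ATL3 gave -0.38 (SE 0.28).

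PPP1R12A, the targeting subunit of myosin phosphatase, showed how far probe sets of 1 gene can disagree. The named probe set measured 8.17, 7.93, 8.28, 8.26 and 7.86 in the low and 6.09, 7.33, 6.79, 7.35 and 7.23 in the high arrays, a difference of -1.14 (SE 0.24). The other 2 probe sets of the gene differed by 0.57 (SE 0.35) and -0.26 (SE 0.21), and their groups overlapped. MAT2B, a regulatory subunit of methionine adenosyltransferase, gave -0.87 (SE 0.23), -1.11 (SE 0.28) and -0.50 (SE 0.36) on its 3 probe sets, all in 1 direction. NREP differed by -1.13 (SE 0.29), PNRC2, a nuclear receptor coactivator, by -0.99 (SE 0.26) and CANT1, a calcium-activated nucleotidase, by -0.97 (SE 0.25). The other probe set of PNRC2 gave -0.60 (SE 0.21) and that of CANT1 only -0.11 (SE 0.14). Of 32 named genes checked, 15 had further probe sets, 21 in all; 17 of the 21 had the sign of the named one and 0 had groups apart.

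**Figure D3:**
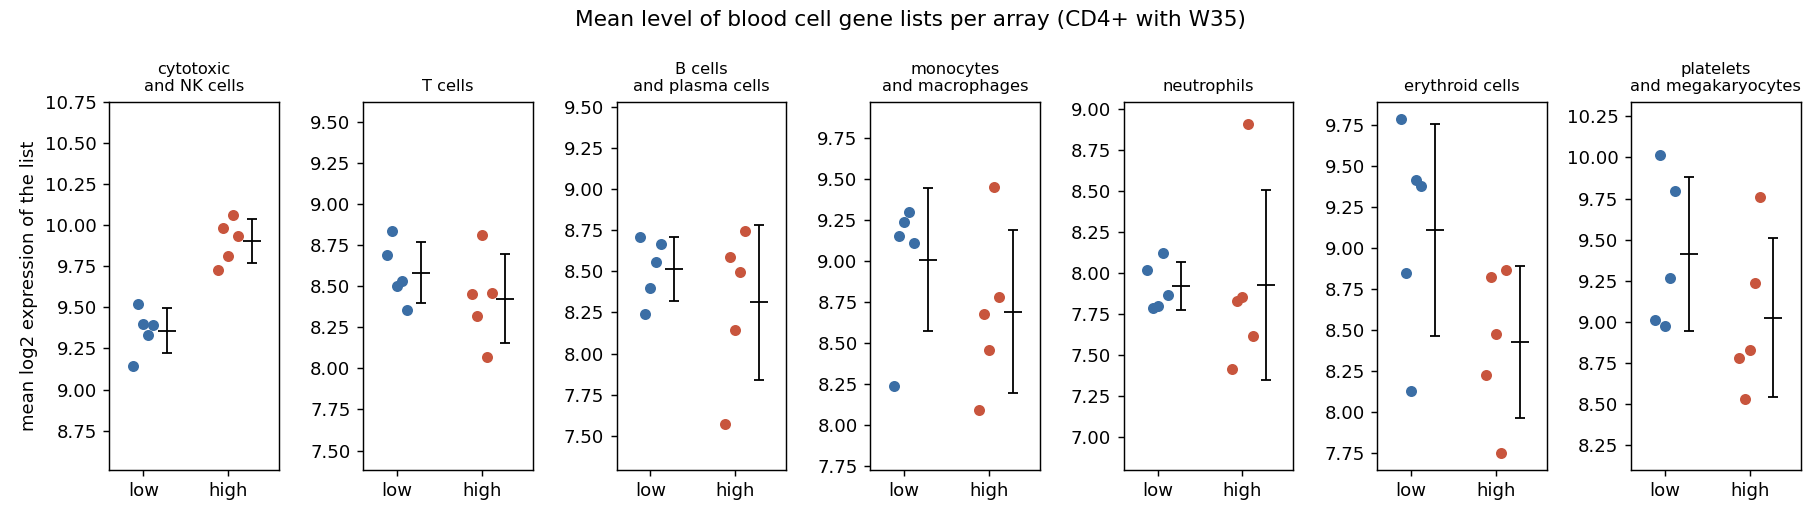
Each panel plots the mean log2 expression of 1 list of blood cell genes per array (y axis, the same span in every panel), low arrays in blue and high arrays in red, with the mean ± SD. The cytotoxic and NK means are 9.14 to 9.52 in the low and 9.73 to 10.06 in the high group, while the groups overlap in the other 6 lists. The lists were chosen with earlier results of these data known.

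The other blood cell types are shown in the plot of mean levels per array, where their groups overlapped. T cell genes had 0 of 12 measured members at an unadjusted p under 0.05 in either direction and a median of -0.22. CD3E, a chain of the T cell receptor complex, differed by 0.04 (SE 0.24) and CD3D, another, by -0.43 (SE 0.23). LEF1, which naive T cells need to develop, gave -0.70 (SE 0.39; -0.44 without high replicate 4) and CCR7, their homing receptor, -0.45 (SE 0.26). IL7R, the receptor that keeps resting T cells alive, gave 0.57 (SE 0.53). The T cell list mean was 8.58 ± 0.19 among low and 8.42 ± 0.27 among high arrays (SD, n = 5 each).

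CD4 itself was dim. It measured 4.22, 3.89, 4.35, 3.85 and 3.60 in the low arrays and 4.63, 3.84, 4.01, 4.16 and 3.81 in the high arrays, below the median probe set mean of 5.49. The groups overlapped, with high replicate 1 alone above all low arrays and low replicate 5 alone below all high arrays. The difference was 0.11 (SE 0.20), and the other CD4 probe set differed by -0.23 (SE 0.16). CD8A, a chain of the coreceptor of cytotoxic T cells, measured 9.24, 9.19, 8.95, 8.78 and 9.08 in the low arrays and 7.91, 10.44, 8.25, 9.66 and 9.74 in the high arrays. The high group held the 2 lowest and the 3 highest arrays, and the means were 9.05 ± 0.19 and 9.20 ± 1.08 (SD, n = 5 each). CD8B, the other chain, differed by -0.01 (SE 0.26).

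Of the 15 measured helper and regulatory T cell genes, 2 were higher and 0 lower at an unadjusted p under 0.05. Over all genes 2.76% were higher and 5.99% lower at that p. RORA, a nuclear receptor of type 17 helper T cells and innate lymphoid cells, measured 6.42, 7.41, 7.36, 5.73 and 6.77 in the low arrays and 8.19, 8.91, 7.66, 7.33 and 8.73 in the high arrays. Only high replicate 4 lay inside the range of the low group, and the difference was 1.43 (SE 0.38). STAT6, which carries the interleukin 4 signal, differed by 0.69 (SE 0.24). FOXP3, the factor of regulatory T cells, gave 0.16 (SE 0.16), and CD40LG, the helper signal to B cells, -0.48 (SE 0.30). IL2, IL4, IL17A and IL21 were dim and differed by -0.01 to 0.16. B and plasma cell genes had 0 of 9 members at that p, with CD79B, part of the B cell receptor, at 0.23 (SE 0.28) and SPIB, a B cell transcription factor, at -0.75 (SE 0.41).

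Erythroid genes were lower in 13 of 18 measured members, against 3587 of 6765 over all genes, with a median of -0.62. At an unadjusted p under 0.05 there were 5 lower (against 5.99% of all genes) and 0 higher. FECH, which inserts iron into haem, measured 10.94, 9.39, 8.34, 11.02 and 10.14 in the low arrays and 7.32, 9.09, 8.11, 7.48 and 7.99 in the high arrays. The groups met because low replicate 3 lay below high replicate 2. The difference was -1.97 (SE 0.51), a 3.92-fold difference in intensity, with an adjusted p of 0.552 in limma. ALAD and UROD, further enzymes of haem synthesis, differed by -1.25 (SE 0.44) and -0.78 (SE 0.31), EPB41, a protein of the red cell membrane skeleton, by -1.05 (SE 0.36), and XPO7, an exportin of maturing red cells, by -0.67 (SE 0.24).

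In 3 further erythroid genes the spread between pigs of a group was as wide as the difference. ALAS2, the first enzyme of haem synthesis in red cells, measured 13.79, 11.92, 10.65, 13.83 and 13.79 in the low arrays and 10.96, 12.73, 11.002, 8.61 and 12.35 in the high arrays, a difference of -1.66 (SE 0.82). HBM, a globin chain, and AHSP, a chaperone of alpha globin, differed by -1.43 (SE 0.82) and -1.64 (SE 1.17). Without high replicate 4 ALAS2 differed by -1.03 and AHSP by -0.93, and AHSP by -2.69 without low replicate 3. The list mean ran from 8.13 to 9.79 in the low and from 7.75 to 8.87 in the high group. It was lowest in high replicate 4 and, among the low arrays, in low replicate 3; without low replicate 3, 10 members were lower at an unadjusted p under 0.05, and without other single arrays 4 to 7. With the erythroid and neutrophil means as covariates 1 was, as the covariate holds these genes. Over all probe sets 1317 were lower at that p without low replicate 3 and 494 with the covariates, in place of 1153.

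**Figure D4:**
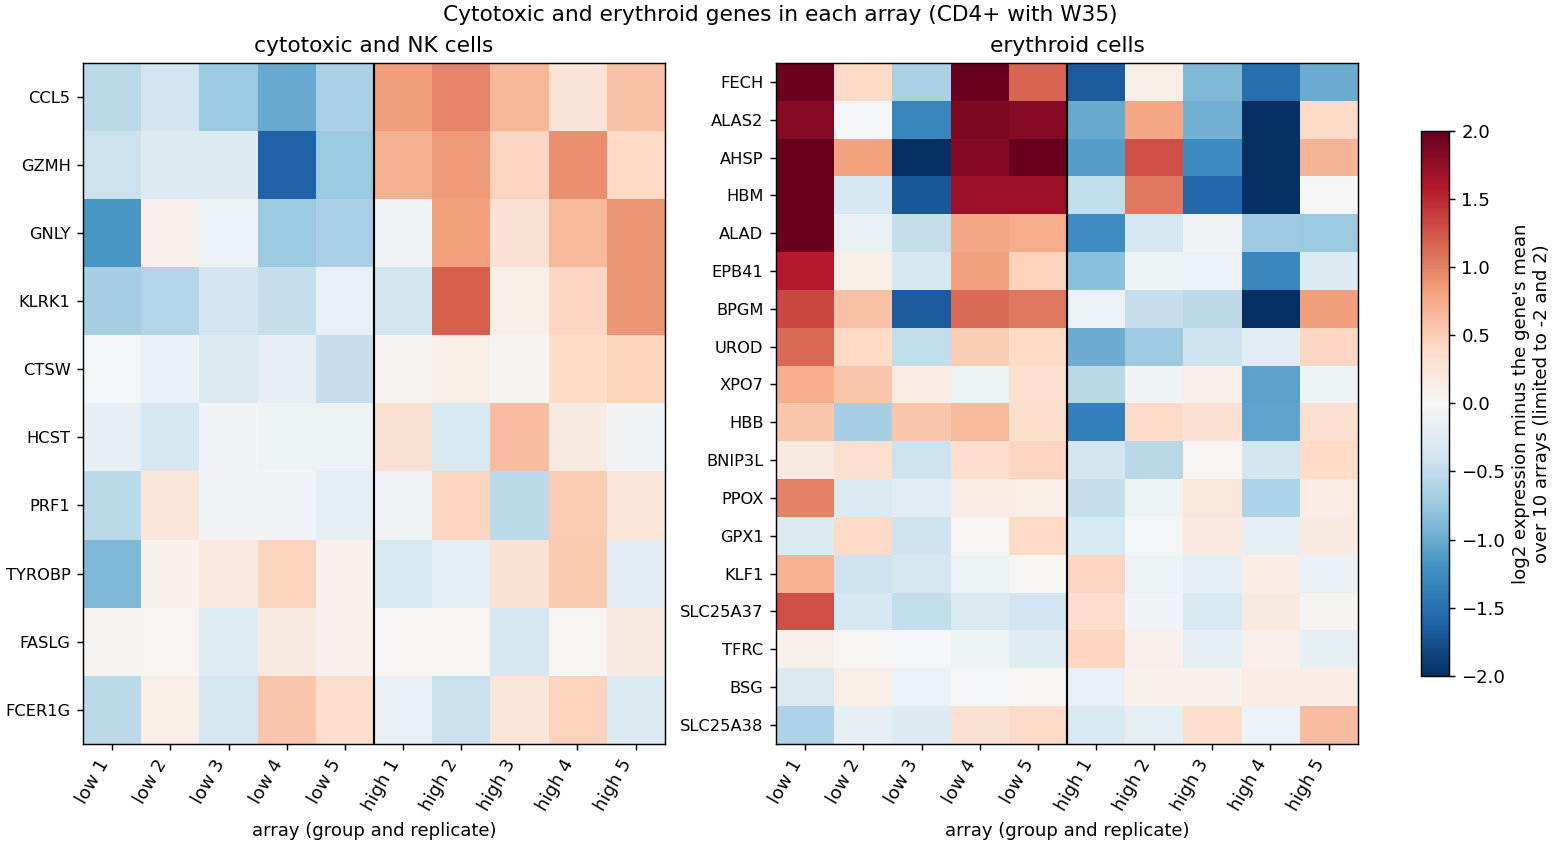
Rows are the 10 cytotoxic and NK genes and the 18 erythroid genes measured, columns the 10 arrays, and colour is log2 expression minus the gene's mean over the arrays, limited to -2 and 2. CCL5 and GZMH have opposite colours on the sides of the line between the groups, while FECH, ALAS2, AHSP and HBM split the low arrays, with low replicate 3 on the low side.

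The heat map shows both lists array by array. CCL5, GZMH and CTSW differ across the boundary between the groups, while the groups overlap in the other cytotoxic genes. Among the erythroid genes, ALAS2 and HBM differed between single pigs: low replicates 1, 4 and 5 were high and low replicate 3 was not. In FECH only low replicate 3 of the low arrays lay below any high array. At an unadjusted p under 0.05 there were 5 higher of 10 cytotoxic and 5 lower of 18 erythroid genes. Over all genes the shares were 2.76% higher and 5.99% lower. The erythroid mean differed by -0.68 and the cytotoxic mean by 0.55. With the erythroid and neutrophil means as covariates CCL5 differed by 1.37 (SE 0.19), GZMH by 1.07 (SE 0.31) and GNLY by 0.80 (SE 0.33), and 5 of the 10 cytotoxic genes had an unadjusted p under 0.05.

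Platelet genes were lower in 13 of 16 members, against 3587 of 6765 over all genes. Only 1 (6.25%, against 5.99% of all genes) was lower at an unadjusted p under 0.05, and the median was -0.36. SELP, the adhesion molecule P-selectin of platelet granules, differed by -0.96 (SE 0.29), and high replicate 5 stood above the other high arrays at 9.001. ITGB3, a chain of the platelet fibrinogen receptor, gave -1.03 (SE 0.48) and PPBP, a platelet chemokine, -0.92 (SE 0.48; -0.59 without high replicate 1). Without low replicate 3 there were 6 lower platelet members in place of 1, and in the larger control class alone there were 5. Over all probe sets 1317 and 1423 were lower in these fits, in place of 1153. Monocyte genes were lower in 15 of 19 members, against 3587 of 6765 over all genes, with 0 at that p and a median of -0.34. In the larger control class alone 4 were lower at that p, and 4 with the erythroid and neutrophil means as covariates. CD14, the lipopolysaccharide coreceptor, differed by -0.86 (SE 0.68), CD163, a haemoglobin scavenger receptor, by -0.85 (SE 0.53), and SIRPA, an inhibitory receptor of myeloid cells, by -0.81 (SE 0.39). High replicate 4 stood above the other high arrays in CD163, at 10.02 against 6.58 to 7.46, and in CD14, at 10.36 against 7.06 to 8.47. Without it CD163 differed by -1.44 and CD14 by -1.40, and without low replicate 4, the highest low array in CD14, CD14 differed by -0.43. Low replicate 1 had the lowest monocyte mean of its group at 8.24, and without it 6 members were lower at an unadjusted p under 0.05. Without high replicate 4, 3 members were. Over all probe sets 1210 were lower without low replicate 1, 939 without high replicate 4 and 494 with the covariates, in place of 1153. Neutrophil genes had 0 of 15 at that p; S100A9, a calcium-binding protein of neutrophils, differed by 0.15 (SE 0.48), and ARG1, an arginase of neutrophil granules in humans, by -1.23 (SE 0.57).

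**Figure D5:**
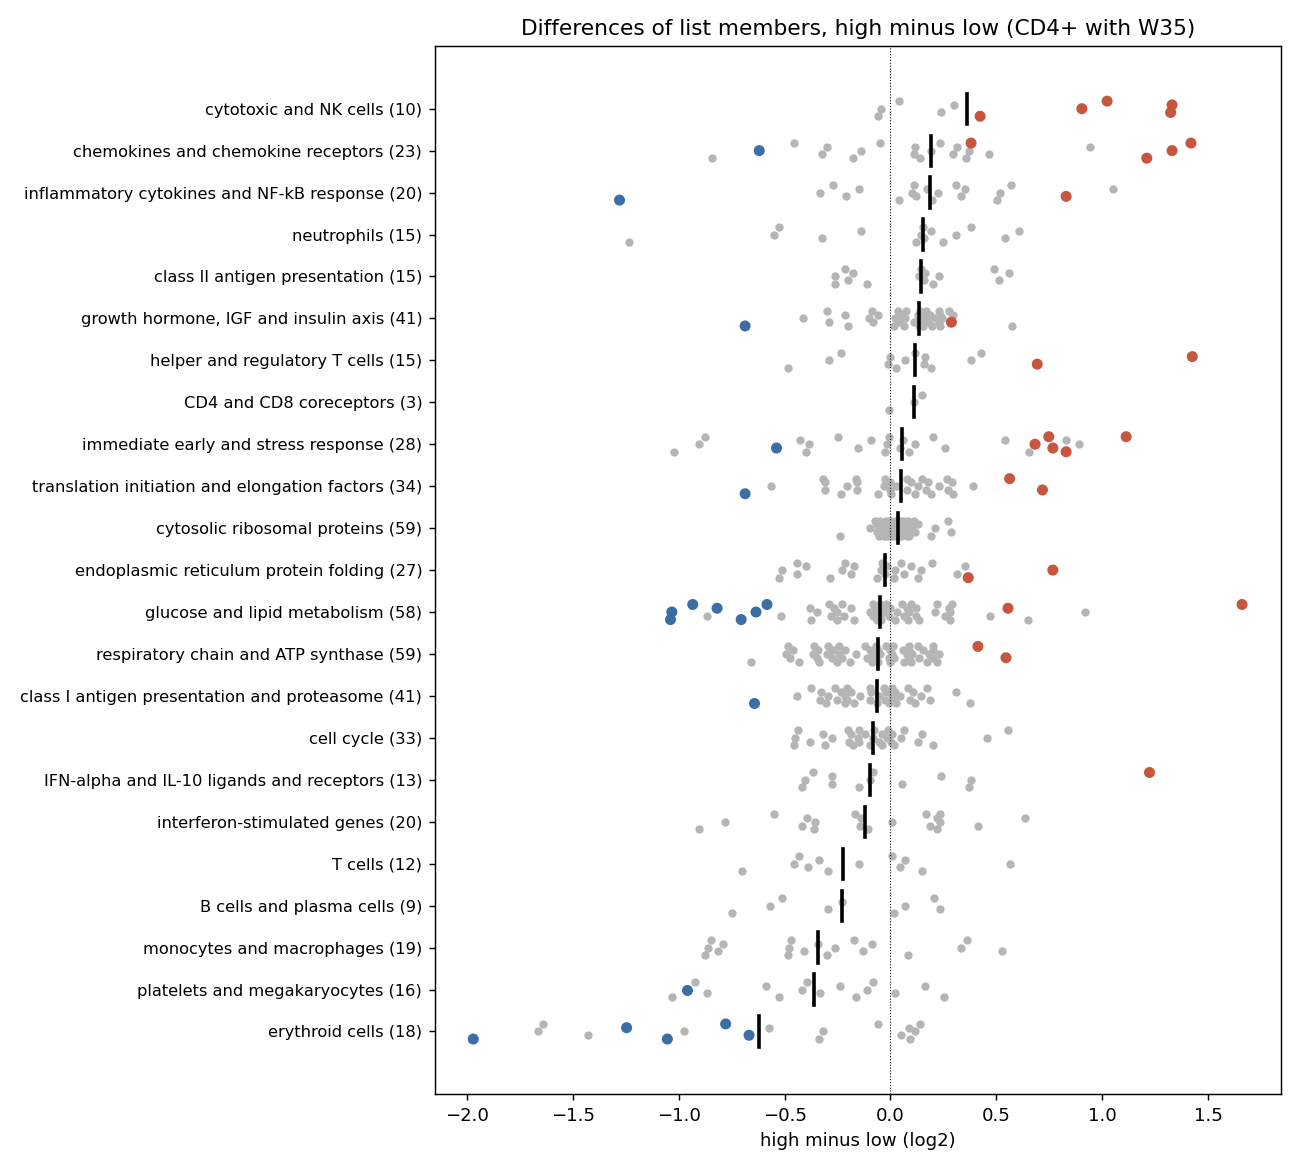
Each point is 1 measured gene of a list, placed by its difference, high minus low on the log2 scale (x axis), with the number of measured genes in brackets and a black bar at the list median. Red and blue points have an unadjusted p under 0.05, and 0 genes pass after adjustment; medians run from -0.62 for erythroid genes to 0.36 for cytotoxic and NK genes.

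Beyond cell types, the plot of differences by list shows most lists centred near 0. The counts stand against 2.76% higher and 5.99% lower over all genes at an unadjusted p under 0.05. Among 23 measured chemokine genes 4 were higher and 1 was lower at an unadjusted p under 0.05, and CCL5 was the only one with groups apart. With 1 array left out the higher ones numbered 1 (without low replicate 4), 2 (without low replicate 1, 3 or 5 or high replicate 2 or 4) or 3, so the 4 needed all 10 arrays. CCL3L1, a macrophage inflammatory chemokine, differed by 1.42 (SE 0.61) with high arrays from 7.37 to 10.89, and by 0.91 without high replicate 5, the highest. CXCL14, a chemokine of epithelia, differed by 1.21 (SE 0.47); low replicate 2 measured 5.98 against 3.83 to 4.02 in the other low arrays. CCL25 and its receptor CCR9, which guide T cells to the gut, differed by 0.38 (SE 0.16) and -0.62 (SE 0.27).

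The cytokine IL10, which dampens inflammation, measured 6.24, 8.13, 7.15, 7.32 and 7.67 in the low arrays and 8.20, 8.70, 8.39, 9.54 and 7.80 in the high arrays. High replicate 5 lay below low replicate 2 and the other high arrays above all low ones. The difference was 1.22 (SE 0.37), and 0.77 (SE 0.40) in the larger control class alone. It was the 1 higher member, with 0 lower, of 13 ligand and receptor genes of IFN-alpha and IL-10 signalling at an unadjusted p under 0.05. Interferon-stimulated genes had 0 of 20 at that p and a median of -0.12. With 1 array left out the median ran from -0.31 without high replicate 4, where 2 were lower, to 0.13 without low replicate 4, and in the larger control class alone it was -0.56 with 3 lower. IFIT1, an antiviral RNA-binding protein, differed by -0.36 (SE 0.35) and MX1, an antiviral GTPase, by -0.36 (SE 0.44). Their mean ran from 9.27 to 11.06 in the low and from 9.16 to 11.18 in the high group, so it differed far more between pigs than between groups.

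Of 28 immediate early and stress genes 5 were higher and 1 was lower at an unadjusted p under 0.05, against 2.76% and 5.99% of all genes. The 5 became 3 without low replicate 4, high replicate 4 or high replicate 5, and 4 to 6 without each other array. DNAJB1, described above, was among the 5 at 0.75 (SE 0.22) and was the 1 member with groups apart. At least 1 of the higher genes given below was counted in another list only. JUN, a subunit of the AP-1 transcription factor, measured 10.52, 8.99, 8.94, 9.21 and 9.85 in the low arrays and 10.32, 10.47, 10.44, 10.63 and 11.22 in the high arrays, with low replicate 1 inside the high range. The difference was 1.11 (SE 0.30). FOS, its partner in AP-1, gave -1.02 (SE 0.59; -1.55 without low replicate 2) and EGR1, another early transcription factor, -0.40 (SE 0.87). DDIT3, a factor induced by unfolded proteins, differed by 0.77 (SE 0.22), ATF4, which acts before it, by 0.37 (SE 0.16), and NR4A2, an orphan nuclear receptor, by 0.68 (SE 0.29). IER3 differed by 0.83 (SE 0.34), and by 0.53 without high replicate 4, while TXNIP, which binds thioredoxin and responds to glucose, differed by -0.54 (SE 0.20). DDIT3 and ATF4 were the 2 higher members, with 0 lower, of 27 genes of protein folding in the endoplasmic reticulum.

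In the inflammatory list 15 of 20 members were higher, against 47% of all genes. At an unadjusted p under 0.05 there were 1 higher (IER3) and 1 lower. With 1 array left out these were 0 to 2 and 0 to 1. IL15, a cytokine that sustains NK and memory CD8 T cells, measured 5.58, 8.60, 8.54, 7.27 and 8.53 in the low arrays and 6.25, 6.60, 5.61, 6.66 and 7.01 in the high arrays. Low replicate 1 was the lowest of all 10 and the other 4 low arrays lay above all high ones, a difference of -1.28 (SE 0.54). With the erythroid and neutrophil means as covariates it was -1.96 (SE 0.60). TNF, the main early inflammatory cytokine, gave -0.15 (SE 0.62) and IL1B 0.11 (SE 0.57).

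Genes of the growth axis were mostly a little higher: 31 of 41 measured members had a difference above 0, against 47% of all genes, with 1 higher and 1 lower at an unadjusted p under 0.05 and a median of 0.13. The 1 higher member was 0 without low replicate 2, 3, 4 or 5 or high replicate 2 or 4, and the 1 lower member 0 without low replicate 4. GHR, the growth hormone receptor, measured 4.08, 3.98, 3.94, 3.86 and 3.75 in the low arrays and 4.15, 4.26, 4.11, 4.41 and 4.11 in the high arrays. The groups did not overlap, but the whole span is under 1 log2 unit near the bottom of the scale, and the difference of 0.29 (SE 0.13) was 0.18 (SE 0.13) after quantile normalization. IGF1 measured 7.16, 7.27, 7.03, 7.15 and 7.04 in the low and 7.15, 7.21, 6.77, 7.58 and 7.72 in the high arrays, with overlap and a difference of 0.16 (SE 0.18). IGF1R, its receptor, differed by 0.05 (SE 0.14) and INSR, the insulin receptor, by 0.24 (SE 0.14). EIF4E, the cap-binding protein on which growth signals converge, differed by -0.69 (SE 0.26), and by -0.44 without high replicate 1. GHR, IGF1R and INSR all measured below the median probe set mean of 5.49, and among the dimmer probe sets as a whole more were higher than lower.

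In glucose and lipid metabolism 2 of 58 genes were higher and 7 lower at an unadjusted p under 0.05, against 2.76% and 5.99% of all genes, none with groups apart. They numbered 1 to 3 and 5 to 9 with 1 array left out, and 1 and 2 with the erythroid and neutrophil means as covariates. Among the lower ones were SQLE, HMGCS1 and FDFT1, enzymes of cholesterol synthesis, at -1.04 (SE 0.35), -0.93 (SE 0.32) and -0.64 (SE 0.26). SCD, which desaturates fatty acids, measured 6.81, 7.31, 7.07, 7.15 and 7.50 in the low arrays and 6.26, 6.19, 6.32, 5.89 and 7.07 in the high arrays, with only high replicate 5 inside the low range, a difference of -0.82 (SE 0.22). ABCA1, which exports cholesterol from cells, measured 5.56, 4.27, 4.46, 4.86 and 3.96 in the low and 6.38, 6.07, 6.94, 7.50 and 4.52 in the high arrays, a difference of 1.66 (SE 0.49). High replicate 5 was again the high array inside the low range. ACADL and ACADM, dehydrogenases of fatty acid oxidation, differed by -1.03 (SE 0.41) and -0.58 (SE 0.24), and PGK1, a glycolytic kinase, by -0.71 (SE 0.23). LPL, which frees fatty acids from lipoproteins, differed by 0.56 (SE 0.25). Without high replicate 1 ACADL differed by -0.67, ACADM by -0.34 and LPL by 0.31.

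The lists of general cell functions held few such genes. Respiratory chain genes had 2 higher of 59, NDUFB7 and NDUFA12 at 0.41 (SE 0.18); the median was -0.06, and 0.06 after quantile normalization. Translation factors had 2 higher of 34, EEF1A1 and EIF5B, which joins ribosomal subunits, at 0.72 (SE 0.26), and 1 lower, EIF4E. Cytosolic ribosomal proteins, with 59 measured, had 0 in either direction, and their differences ran from -0.24 to 0.28. Cell cycle genes had 0 of 33, with a median of -0.08. Of 41 class I and proteasome genes 1 was lower, the regulatory subunit PSMD1 at -0.64 (SE 0.27), and by -0.38 without high replicate 1. Class II genes had 0 of 15, with SLA-DRA, a class II chain, at 0.20 (SE 0.26). With 1 array left out the respiratory chain had 1 to 5 higher (5 without high replicate 1) and 0 to 3 lower, and translation factors had 2 to 5 higher (5 without high replicate 4) and 0 to 3 lower. Class I and proteasome genes had 0 to 2 higher and 0 to 3 lower, and genes of protein folding in the endoplasmic reticulum 1 to 3 higher and 0 to 2 lower. The T cell, B cell, neutrophil, cell cycle, class II and ribosomal lists had 0 or 1 in each direction.

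The 5 named genes with the smallest p among those with groups apart, CCL5, KLK7, TPP2, GZMH and MAN1C1, were also set beside their values in other trait pairs, which share pigs with the CD4+--W35 pair and are not independent of it. The pair of CD8+ with W35 holds 3 of the same low and 2 of the same high pigs. There CCL5 differed by 1.22 (SE 0.26), GZMH by 0.76 (SE 0.42), KLK7 by -1.14 (SE 0.31), TPP2 by -0.60 (SE 0.20) and MAN1C1 by -0.16 (SE 0.32). Over the 2 low and 3 high pigs not in the CD4+--W35 pair the differences were 1.30 for CCL5, 0.44 for GZMH, -0.996 for KLK7, -0.48 for TPP2 and 0.30 for MAN1C1, without a test. The groups were apart for CCL5 and KLK7 and overlapped for GZMH, TPP2 and MAN1C1. Groups of 2 and 3 pigs separate easily by chance.

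The other pairs are given for CCL5 and KLK7, the higher and the lower gene with the smallest p. In the pair of CD4+ with IFN-alpha CCL5 differed by -0.91 (SE 0.46) and KLK7 by 0.73 (SE 0.47). Over the pigs not in the CD4+--W35 pair they differed by -1.20 and 0.89. In the pair of CD4+ with IL-10 CCL5 differed by 0.45 (SE 0.50) and KLK7 by -0.77 (SE 0.42), and over the other pigs by -0.01 and -0.78. In the IL-10 pair with W35, 1 low and 2 high arrays are of pigs in the CD4+--W35 pair, 2 of them there under the opposite label. CCL5 differed in it by -1.03 (SE 0.35) and KLK7 by 0.39 (SE 0.34). Over the other pigs CCL5 differed by -1.23, with the high group apart below the low, and KLK7 by 0.12. In the IFN-alpha pair with W35 they differed by -0.22 (SE 0.34) and -0.44 (SE 0.42), and over the other pigs by -0.58 and -0.58. In the pair of CD8+ with IFN-alpha CCL5 differed by 0.70 (SE 0.44) and KLK7 by -0.12 (SE 0.45). Over the other pigs CCL5 differed by 0.65 and KLK7 by -0.04. In the pair of CD8+ with IL-10 they differed by -1.06 (SE 0.45) and 0.57 (SE 0.46), and over the other pigs by -1.07 and 0.81. Shared arrays under the opposite label numbered 1 in each pair with IFN-alpha. There were 2 in the pair of CD8+ with IL-10 and 0 in that of CD4+ with IL-10. Over the other pigs, 16 of the 24 named genes with groups apart had the sign of the CD4+--W35 pair in the pair of CD8+ with W35, and 5 to 20 of 24 did across the 7 other pairs.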

How the data were processed

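RNA from the blood of 10 pigs, 1 Affymetrix porcine array each, was compared, 5 in the low and 5 in the high CD4+--W35 group. The deposited table gives log2 values per probe set; the authors used RMA and limma, per the submitters' processing notes, with versions not given in the sources used here. It holds 24123 probe sets, 124 of them controls, which were set aside. By the platform's annotation 10069 of the 23999 tested carry 1 symbol, 198 several and 13732 none, and 6765 genes were described by their brightest probe set. Arrays give no counts, so depth is unknown and precision is limited by the number of arrays. Nothing in the sources beyond the separate pigs describes the samples as independent, so p-values measure the spread between these pigs.

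The group difference was fitted with limma 3.58.1 under R 4.3.3 (data.table, version 1.17.8), with eBayes at default settings, two-sided tests, Benjamini-Hochberg adjustment over all probe sets and a threshold of 0.05. The other trait pairs, normalized separately and with pigs in common, were kept out of the fit; arrays correlated above 0.99 were taken as 1 pig. The classes of bioB minus bioC were divided at -2.3 and those of EIF1AY at 5. The labels do not say that a replicate number is shared, so the numbers were not taken as pairs. Same-numbered deviations did correlate, from -0.18 to 0.34 and above 0.1 for 4 of 5 numbers. A fit with the replicate number as a block is therefore among the alternatives. The deposited sheet of group labels was not used. Alternatives covered the scaling, a filter on dim probe sets, the variance model, array weights, the replicate number or control class as a block, covariates for RNA integrity, blood cells and EIF1AY, and each array left out.

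The 23 gene lists and the members were chosen with earlier results of these data known. Named genes are the 12 per direction with the smallest p among probe sets with 1 symbol, a mean at or above the median and groups apart. To these come genes that pass when 1 array is left out, the trait genes, up to 6 members per direction of each list at an unadjusted p under 0.05, and the 3 brightest members of each of 7 cell type lists. Other list members were named after their values were seen. On simulated data with the spread of this pair and 23999 probe sets, 46 of 100 probe sets changed 2-fold and 94 of 100 changed 4-fold were recovered, with 6 false calls. The simulated probe sets were independent and normally distributed. Probe sets of real arrays vary together, so these numbers may not hold for the real data. Plots were made in Python 3.11.15 with matplotlib 3.10.9.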

Additional observations from a re-analysis of the deposited data

Results flagged for a closer look

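In 20 of the 228 groups of 5 values checked, 1 array stood far from the other 4 of its group (its gap to the nearest over the group's range above 0.71), where chance gives about 1 in 20 groups. High replicate 1 accounted for 6 of them. It measured 6.55 in CANT1 (other high arrays 7.54 to 7.66), 6.78 in MAP4K4 (5.78 to 6.03), 10.45 in PGK1 (11.23 to 11.49) and 6.48 in LPL (5.14 to 5.45). Its mean was 9.64 for class I and proteasome genes (10.24 to 10.38) and 9.21 for respiratory chain genes (9.80 to 9.90).

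Low replicate 1 stood low in some myeloid genes and high in HP, a member of the neutrophil list. It measured 10.31 in ITGB2, an integrin chain of white cells, 11.22 in CEBPB, a transcription factor of myeloid cells, and 12 in TYROBP, a signalling adaptor. PLEK, a protein of platelets and white cells, measured 10.47 there. The mean of the monocyte list was 8.24 in that array (other low arrays 9.11 to 9.30), and that of the inflammatory list 6.91 (7.32 to 7.40). The neutrophil mean was 8.02 there, within the other low arrays (7.78 to 8.12), and HP, the plasma protein haptoglobin, measured 9.15 (6.57 to 7.63).

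High replicate 3 stood high in KLK7 at 7.82 (6.87 to 7.09), HMGA1 at 8.85 (8.33 to 8.47) and PA2G4 at 10.41 (9.80 to 9.94). Low replicate 4 measured 8.05 in ZC3H11A (8.72 to 8.89), low replicate 2 measured 5.98 in CXCL14 (3.83 to 4.02), and low replicate 3 measured 9.01 in LCK, the first kinase of T cell receptor signalling (9.66 to 9.87). High replicate 5 measured 9.0 in SELP (7.96 to 8.10). The control bioB minus bioC was -4.06 in high replicate 2 (-1.43 to -1.03), the only high array of the lower control class.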

How the results depend on the processing

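The number of probe sets under an adjusted p of 0.05 was 0 in every setting tried except without low replicate 2 (6) and without high replicate 4 (2), and 0 were under 0.1 with all arrays. The 2143 probe sets with an unadjusted p under 0.05 became 1270 (385 higher, 885 lower) with a filter at the median probe set, 564 (171 and 393) with 1 probe set per gene, and 859 (365 and 494) with erythroid and neutrophil means as covariates. Leaving out 1 array gave 1118 to 2744, and 0 to 6 after adjustment. The 394 probe sets with groups apart became 182 with the filter, 91 in each direction, 87 with 1 probe set per gene (45 and 42), 2491 in the larger control class alone (3 low and 4 high arrays, which separate more easily), and 463 to 895 with 1 array left out; fewer probe sets or arrays entered all of these. Weights, blocks, covariates and eBayes settings cannot change this count. With the replicate number as a replicate block 2737 had an unadjusted p under 0.05 (1181 higher, 1556 lower) and 0 passed after adjustment. Deviations from the group mean were correlated between each array and the 5 arrays of the other group. In 6 of 10 arrays the best match had their own number, a hint from the data. Under that block 4 interferon-stimulated, 3 monocyte and 3 neutrophil genes were lower at an unadjusted p under 0.05, in place of 0 each, and 3 immediate early and stress genes in place of 1. Centring on the array median gave 1071 higher and 1066 lower, array weights 1390 and 1295, trend and robust settings 1145 and 1091, and the larger control class 718 and 1423, so which direction held more depended on the setting. Quantile normalization gave 228 higher and 133 lower probe sets with groups apart, in place of 283 and 111. Named genes with an unadjusted p under 0.05 kept their sign in all settings tried; others near 0, such as CD8B and TYROBP, did not. Quantile normalization turned the median of the class I, glucose and lipid, respiratory chain and endoplasmic reticulum lists from below to above 0, to 0.01, 0.04, 0.06 and 0.09. With the erythroid and neutrophil means as covariates FECH differed by -0.88, ALAD by -0.41, EPB41 by -0.33, UROD by -0.27, ACADL by -0.36, CCR9 by -0.37 and PSMD1 by -0.38 (the covariate holds the first 4 genes); with array weights FDFT1 differed by -0.40 and PSMD1 by -0.35, and for these 2 and the last 3 the cause was not tested. Counts by signal, list counts under each setting, list members with 1 array left out and values over other pigs were added after seeing the data. At 5 arrays a group, the simulation, with independent probe sets, recovered 46 of 100 2-fold differences, which limits what a count of 0 can show.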
